A study of Mus musculus with 12 samples.

Results

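The genes described here are the core of MHC class I antigen presentation in the mouse: B2m, H2-K1, H2-D1, Tap1, Tap2, Tapbp, Psmb8, Psmb9, Psmb10 and Nlrc5. They are 10 of the 32285 genes in the count tables, each matched by its symbol to 1 entry and chosen by role, with earlier results of these data known. The study profiled tumours grown from 4 derivatives of the mouse line SCC35, which its title places in melanoma, by single-cell RNA-seq, with samples labelled by antibody hashtags. Lines 19 and 24 carry a knockout (KO) of Mif, the gene of the cytokine macrophage migration inhibitory factor, and lines 15 and 18 are their controls. Samples were assigned to day 0, 6, 10 or 16 by the deposited hashtag sheet, which also holds 3 samples named WT, 1 each of days 6, 10 and 16. No label says what material the day 0 samples are. Day 0 had 2 samples for lines 15, 19 and 24 and 1 for line 18, and each later day had 3 tumours a line, except day 6 of line 24 with 2. This gave 42 samples of the 4 lines, 21 in control lines and 21 in KO lines. No other treatment is named, and the host strain, the way the knockout was made and whether a line is 1 clone are stated by no label. The letters A, B and C that tell tumours of a day apart are not said to be separate animals, so p-values measure the spread between these samples only. Each group holds 2 lines, so a difference between KO and control lines rests on 2 lines against 2.

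Class I molecules show peptides from inside the cell to CD8 T cells. The heavy chains H2-K1 and H2-D1 each pair with the light chain beta-2-microglobulin, encoded by B2m. Peptides cut by the proteasome are pumped into the endoplasmic reticulum by the Tap1-Tap2 transporter. They are loaded onto the paired chains with the help of tapasin, encoded by Tapbp. Psmb8, Psmb9 and Psmb10 encode the catalytic subunits of the immunoproteasome, and Nlrc5 encodes the main transactivator of class I genes. Interferon-gamma raises the transcription of the whole set in many cell types, and tumours with low class I are a known problem for T cell recognition.

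In GENCODE's annotation of the mouse build GRCm38, the equivalent of the mm10 build named in the submitters' processing notes, 7 of the 10 genes lie on chromosome 17, B2m on chromosome 2 and Nlrc5 and Psmb10 on chromosome 8. Tap1 (chr17:34187553-34197225, plus strand) and Psmb9 (chr17:34181987-34187764, minus strand) run in opposite directions from overlapping starts, and no source says whether the counting there used strand. H2-K1 (chr17:33996017-34000347, minus strand) and H2-D1 (chr17:35262730-35267499, plus strand) lie on either side of them. RefSeq promoter entries on GRCm38.p6 were matched for 8 of the 10 genes. Shown are 4 stretches, because the heavy chains and B2m (the 3 chains below) and the Tap1-Psmb9 pair followed different courses. The first 3 are the 180 bases before the RefSeq start of H2-K1 (chr17:34000348-34000527, minus strand), H2-D1 (chr17:35262914-35263093, plus strand) and B2m (chr2:122147507-122147686, plus strand), and the last is the 225 bases of chr17:34187331-34187555 on the plus strand, between the RefSeq starts of Psmb9 and Tap1. GENCODE's gene spans are the union of all transcripts and begin further out for Psmb9 and H2-D1, so these stretches lie inside the spans given for both. Capitals mark the motifs TGACG (the core of the X box), ATTGG or CCAAT (the Y box on either strand), the NF-kB site of class I promoters (the 10 capitals starting with GGGG) and the core of the interferon-stimulated response element (the 10 capitals starting with GAAA).
H2-K1: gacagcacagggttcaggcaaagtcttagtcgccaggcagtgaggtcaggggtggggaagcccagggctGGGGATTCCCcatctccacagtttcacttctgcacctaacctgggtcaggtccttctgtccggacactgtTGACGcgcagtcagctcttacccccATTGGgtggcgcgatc
H2-D1: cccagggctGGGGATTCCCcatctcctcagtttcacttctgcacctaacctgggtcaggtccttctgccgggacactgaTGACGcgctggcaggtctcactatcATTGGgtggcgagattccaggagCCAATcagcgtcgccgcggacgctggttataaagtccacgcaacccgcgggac
B2m: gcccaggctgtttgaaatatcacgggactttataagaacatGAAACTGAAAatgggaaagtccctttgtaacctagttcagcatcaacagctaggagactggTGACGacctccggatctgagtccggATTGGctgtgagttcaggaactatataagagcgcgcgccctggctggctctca
Psmb9 to Tap1: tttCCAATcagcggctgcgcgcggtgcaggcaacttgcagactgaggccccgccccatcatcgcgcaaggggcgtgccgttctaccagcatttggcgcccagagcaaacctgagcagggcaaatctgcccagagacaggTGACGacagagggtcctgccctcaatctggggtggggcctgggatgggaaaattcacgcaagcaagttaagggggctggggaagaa
In H2-K1, H2-D1 and B2m, TGACG is followed by ATTGG with the first letters 25 bases apart, a spacing chosen after the sequences were seen. Of 32851 promoter entries of all genes, 30 held this pattern in the 250 bases before the start on either strand, or 0.0913%, and they belong to 26 genes, among them H2-M3. The NF-kB site was found in H2-K1 and H2-D1 and in 28 entries in all, or 0.0852%. Searched on both strands, TGACG alone was in 5 of the 8 promoters and in 17.8% of all entries, and CCAAT was in 6 of the 8 and in 33.8%. The core of the interferon-stimulated response element was found in B2m alone of the 8 (2.98% of all entries), and the interferon-gamma activated site TTCNNNGAA in Psmb8 alone (7.02%). A match describes letters in a window and is no measurement of binding. Only exact matches to each pattern were counted, and variants of a pattern were neither searched nor marked by capitals. The count for the interferon-stimulated response element therefore does not show that the promoters of H2-K1 and H2-D1 lack a variant of it.

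The 6 gene-expression libraries held 176381 barcodes, of which 163866 passed a filter on genes and mitochondrial counts. Cells carrying 1 hashtag were gated by marker genes into 59072 cells of the line compartment, 15603 macrophages and monocytes, 5068 T cells and smaller classes, while 10684 met no gate. The line compartment is defined by the absence of Ptprc, the pan-leukocyte gene, and of host markers, not by a tumour marker: of the melanocyte genes, Tyr was at 0 in all 42 samples, Mlana in 33 and Sox10 in 19, while Mitf was at 6.71 to 22.3 CPM, counts scaled to a total of 1000000. The compartment held 215 to 3090 cells and 1937206 to 25555349 UMIs a sample. Mif was at 1777 to 3112 CPM in line 15, 1820 to 2696 in line 18, 45.1 to 274 in line 19 and 228 to 745 in line 24. The high values of both KO lines were those of letter C, at 269 to 274 CPM in line 19 against 45.1 to 78.9 in the other samples, and at 713 to 745 in line 24 against 228 to 467. In every sample below, a level in CPM is the gene's share of all UMIs of the class, summed over its cells, on that scale. Any pair of libraries shared 802 to 1613 cell barcodes. Letters A and B of the later days came from the single-line library that also held that line's day 0 samples, and letter C from a mixed library. RNA of other tumours in the mixed libraries was not measured, and its part in the Mif and class I levels of letter C was not tested. Counts from single-line libraries alone are given among the alternatives. Between samples of 1 line and day, counts over genes differed by 1.67 to 33.6 times their sampling noise (chi-square per degree of freedom, 37 pairs). None was dropped as a duplicate, though these values cannot show that samples are separate cultures or animals. The day 0 pairs of lines 15, 19 and 24 were the 3 lowest, at 1.67 to 1.75. No label says whether both hashtags of a line mark 1 culture, so the spread at day 0 may be technical.

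At day 0, line 24 stood above the other lines for 9 of the 10 genes, and Psmb10 was the exception. H2-K1 was at 1839 and 1869 CPM in line 24, against 613 and 600.4 in line 15, 472 and 504 in line 19 and 254 in line 18. B2m was at 2913 and 2927 in line 24, 1647 and 1673 in line 19, 1468 and 1523 in line 15 and 1209 in line 18. Psmb9 was at 49.3 and 41.2 CPM in line 24 and between 6.71 and 14.4 in the other 3 lines. The lowest line was 18 for B2m, H2-K1, H2-D1, Psmb8, Psmb9, Tap1, Tapbp and Nlrc5, with its 1 day 0 sample. The KO lines 19 and 24 were not alike: their H2-K1 samples did not overlap, and line 19 lay below control line 15. These levels are given as a description, and the difference between lines at day 0 was not tested.

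**Figure D1:**
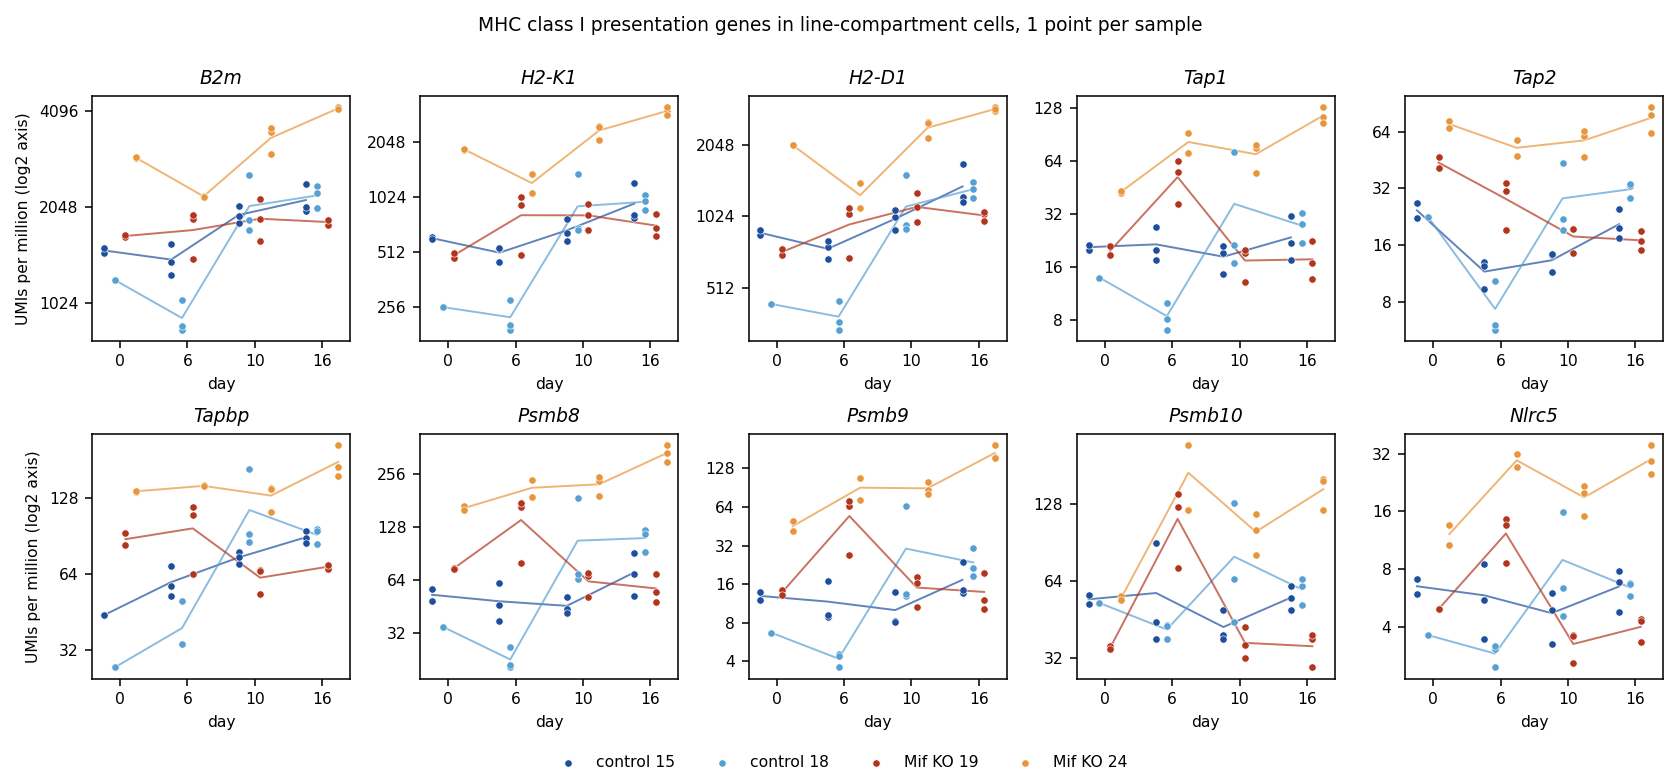
Level of each gene in the line compartment (CPM, log2 axis) against day, with days evenly spaced and 1 point per sample, coloured by line, and lines through the means. Line 24 is highest at day 0 for every gene but Psmb10, the peak of line 19 is at day 6 for Psmb9, Psmb10, Tap1, Psmb8 and Nlrc5, and H2-K1 in line 18 goes from 192 to 278 at day 6 to 863 to 1047 at day 16.

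The heavy chains and B2m were higher at day 16 than at day 0 in every line, in each tumour. In line 18, H2-K1 was at 254 CPM at day 0, at 278, 192 and 202 at day 6, at 1358, 689.9 and 672 at day 10 and at 1047, 863 and 969.8 at day 16. Day 6 overlapped day 0, and all 6 tumours of days 10 and 16 lay above both. The log2 fold change from day 0 was -0.09 ± 0.34 (approximate standard error, edgeR quasi-likelihood test, adjusted p = 0.915) at day 6. H2-K1 rose by 1.84 ± 0.38 (edgeR adjusted p = 0.00124) at day 10 and 1.90 ± 0.38 (0.000727) at day 16. H2-D1 rose with it, by 1.37 ± 0.27 at day 10 and 1.58 ± 0.28 at day 16 (edgeR adjusted p = 0.00102 and 0.000188), and B2m by 0.78 ± 0.20 and 0.86 ± 0.21 (0.00929 and 0.00386). The single day 0 sample of this line means that its spread was taken from the other groups of the fit.

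In line 24, the chains of the class I molecule were lower at day 6 and higher at days 10 and 16 than at day 0. H2-K1 was at 1839 and 1869 CPM at day 0, at 1355 and 1075 at day 6, at 2504, 2475 and 2094 at day 10 and at 3001, 3166 and 2863 at day 16. Every day stood apart from day 0, below it at day 6 and above it later. At day 6 the fall was called for H2-D1 alone, from 2035 and 2044 to 1408 and 1105 CPM (log2 -0.61 ± 0.21, edgeR adjusted p = 0.0265). H2-K1 was at -0.52 ± 0.28 (edgeR adjusted p = 0.155) and B2m at -0.30 ± 0.17 (0.162) there. The day 6 call of H2-D1 was lost in single-line libraries alone and not kept in every fit that left out 1 letter. At day 10 none of the 3 was called: H2-K1 was at 0.45 ± 0.26, H2-D1 at 0.35 ± 0.20 and B2m at 0.31 ± 0.15 (edgeR adjusted p = 0.172, 0.167 and 0.109). At day 16, H2-K1 rose by 0.83 ± 0.26 (edgeR adjusted p = 0.0103), H2-D1 by 0.64 ± 0.20 (0.0096) and B2m by 0.65 ± 0.16 (0.00105), B2m from 2913 and 2927 to 4152, 4214 and 4163 CPM. The calls of H2-K1 and H2-D1 at day 16 were lost when letter A of day 0 was left out of lines 15, 19 and 24 at once, or letter B, and that of B2m was kept. Each such fit leaves 1 day 0 sample per line.

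In line 19, H2-K1 was at 472 and 504 CPM at day 0, at 925, 1013 and 492 at day 6, at 934, 816 and 676 at day 10 and at 689, 822 and 622 at day 16. The tumour of letter C at day 6 lay between the day 0 samples, and all others lay above them. H2-K1 rose by 0.93 ± 0.26, 0.90 ± 0.26 and 0.69 ± 0.26 at days 6, 10 and 16 (edgeR adjusted p = 0.00488, 0.00667 and 0.0355), and H2-D1 by 0.58 ± 0.20, 0.80 ± 0.20 and 0.66 ± 0.20 (0.0186, 0.00161 and 0.00877). The day 6 calls of both genes were lost in the fit without letter B of day 0. B2m did not pass at any day, at 0.25 ± 0.15, 0.35 ± 0.15 and 0.29 ± 0.15. In line 15, H2-K1 was at 613 and 600.4 CPM at day 0, 531, 451 and 534 at day 6, 649.9, 776 and 583 at day 10 and 1221, 783 and 809 at day 16. Day 6 lay below day 0, day 10 overlapped it and day 16 lay above it, and no day passed the test for this gene (0.60 ± 0.26 at day 16, edgeR adjusted p = 0.0567). B2m rose by 0.40 ± 0.15 at day 10 and 0.50 ± 0.15 at day 16 (edgeR adjusted p = 0.0344 and 0.0084), and H2-D1 by 0.62 ± 0.20 at day 16 (0.0101). The day 10 call of B2m was not kept in every fit that left out 1 letter. H2-K1 and H2-D1 share stretches of sequence with other class I genes: 8.79% of the 50-base windows of the H2-K1 transcript and 14.3% of those of H2-D1 occur in another gene, so part of their reads may be split or lost, and their counts are less certain than that of B2m, which shares none.

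The subunits of the peptide transporter took different courses in lines 19 and 24, while in line 18 both lay below day 0 at day 6 and above it at day 16. Tap1 peaked at day 6 in line 19: it was at 20.9 and 18.6 CPM at day 0, 54.9, 63.9 and 36.3 at day 6, 19.2, 19.9 and 13.2 at day 10 and 13.7, 22.4 and 17.0 at day 16. The day 6 tumours stood above all others of the line, and Tap1 rose by 1.61 ± 0.41 at that day (edgeR adjusted p = 0.00165). At days 10 and 16 its fitted change was 0.02 ± 0.41 and 0.03 ± 0.41. In line 24, Tap1 was at 42 and 43.4 CPM at day 0, 71.2 and 92.3 at day 6, 75.6, 78.6 and 54.8 at day 10 and 129, 113 and 104 at day 16. All later tumours of line 24 lay above day 0, with rises of 1.06 ± 0.39 at day 6 and 1.56 ± 0.36 at day 16 (edgeR adjusted p = 0.0354 and 0.00074). Tap1 passed at no day in lines 15 and 18, where 1 tumour of line 18, day 10 letter A, was at 71.3 CPM and the other 2 of that day at 21.3 and 16.8.

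Tap2 fell from day 0 where it was called. In line 19 it was at 41.0 and 46.7 CPM at day 0, 34.1, 31.1 and 19.3 at day 6, 19.4, 19.5 and 14.5 at day 10 and 16.8, 15.0 and 19.1 at day 16. All 9 later tumours lay below both day 0 samples, and the fall was 1.15 ± 0.26 at day 10 and 1.24 ± 0.26 at day 16 on the log2 scale (edgeR adjusted p = 0.000622 and 0.000297), with -0.48 ± 0.26 (0.135) at day 6. In line 15, Tap2 was at 22.3 and 26.7 CPM at day 0, 9.44, 13.0 and 12.4 at day 6, 11.5, 14.2 and 14.3 at day 10 and 24.9, 17.4 and 19.8 at day 16, and it fell by 1.04 ± 0.28 at day 6 and 0.84 ± 0.28 at day 10 (edgeR adjusted p = 0.00495 and 0.0145). The ratio of Tap2 to Tap1 UMIs within a sample, which depends on both genes' lengths and capture, was lower at day 6 than at day 0 in all 4 lines: 1.11 to 1.25 against 0.484 to 0.619 in line 15, 1.63 against 0.74 to 1.03 in line 18, 1.96 to 2.51 against 0.486 to 0.621 in line 19 and 1.55 to 1.74 against 0.621 to 0.669 in line 24. Tap1 and Tap2 share 25 windows of 50 bases.

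Tapbp was called higher in both control lines and in neither KO line. In line 15 it was at 44.0 and 44.1 CPM at day 0, 52.3, 57.3 and 69.0 at day 6, 70.3, 78.3 and 74.8 at day 10 and 94.7, 89.0 and 84.9 at day 16. All 9 later tumours lay above day 0, with rises of 0.79 ± 0.23 at day 10 and 1.0 ± 0.23 at day 16 (edgeR adjusted p = 0.00591 and 0.000651). The day 10 call was not kept in every fit that left out 1 letter. Line 18 had 27.4 CPM at day 0, 33.8 to 49.9 at day 6, 85.4 to 167 at day 10 and 84.1 to 96 at day 16, rising by 2.08 ± 0.40 and 1.72 ± 0.40 at days 10 and 16 (edgeR adjusted p = 0.000612 and 0.003). In line 19, Tapbp was at 83.1 and 92.7 CPM at day 0, 63.8 to 118 at day 6 and 53.3 to 69.7 at days 10 and 16, the last below day 0 in all 6 tumours but without a call (-0.32 ± 0.22 and -0.20 ± 0.22). Line 24 had 135 and 137 CPM at day 0, 142 to 144 at day 6, 113 to 140.3 at day 10 and 156 to 207 at day 16. All tumours of days 6 and 16 of line 24 lay above day 0, and no day was called (0.51 ± 0.22 at day 16).

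All 3 immunoproteasome subunits were called at day 6 in line 19 and at day 16 in line 24. Psmb9 in line 19 was at 14.4 and 13.2 CPM at day 0, 65.3, 70.6 and 27.1 at day 6, 18.4, 16.2 and 10.6 at day 10 and 10.3, 19.4 and 12.1 at day 16. The 3 tumours of day 6 stood above the other 8 samples of the line, and the later days overlapped day 0. Psmb9 rose by 2.20 ± 0.53 at day 6 (edgeR adjusted p = 0.000987), Psmb10 by 1.86 ± 0.36 (8.07e-05) and Psmb8 by 1.11 ± 0.34 (0.00793). Psmb10 was at 35.7 and 34.8 CPM at day 0 and 124, 139.8 and 72.1 at day 6, and Psmb8 at 75.1 and 73.4 and then 166, 174 and 79.8. No subunit was called in line 19 at day 10 or 16.

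In line 24, Psmb9 was at 49.3 and 41.2 CPM at day 0, 72.8 and 108 at day 6, 87.1, 99.6 and 81.0 at day 10 and 157, 194 and 154 at day 16. Each later day lay above day 0, and day 16 above all others. Psmb9 rose by 1.09 ± 0.43 at day 10 and 2.03 ± 0.45 at day 16 (edgeR adjusted p = 0.0459 and 0.000413), with 1.12 ± 0.48 (0.0673) at day 6. Psmb10 was at 55.9 and 53.9 CPM at day 0 and at 122 and 217 at day 6, and rose at all 3 days, by 1.75 ± 0.36, 0.97 ± 0.33 and 1.54 ± 0.34 (edgeR adjusted p = 0.000277, 0.019 and 0.000391). The day 10 calls of Psmb9 and Psmb10 were not kept in every fit that left out 1 letter. Psmb8 was called at day 16, rising from 169 and 159 to 337, 374 and 298 CPM (1.17 ± 0.32, edgeR adjusted p = 0.00389). The tumours of days 6 and 10, at 190 to 237 and 191 to 247 CPM, also lay above day 0 but were not called. In line 18, Psmb8 was at 34.6 CPM at day 0, 20.3 to 26.4 at day 6, 64.3 to 187 at day 10 and 91.8 to 123 at day 16, rising by 1.63 ± 0.56 and 1.66 ± 0.55 at days 10 and 16 (edgeR adjusted p = 0.0438 and 0.038). Psmb9 in line 18 had similar fitted changes with wider errors, 2.18 ± 1.09 and 1.79 ± 1.12, and no call. In line 15 no subunit was called at any day.

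Each immunoproteasome subunit takes the place of a constitutive one, Psmb8 of Psmb5, Psmb9 of Psmb6 and Psmb10 of Psmb7. The ratio of UMIs within a sample follows this exchange at the RNA level only, and its height depends on the capture of both genes. In line 24, Psmb9 over Psmb6 was 0.189 to 0.227 at day 0, 0.376 to 0.515 at day 6, 0.436 to 0.537 at day 10 and 0.826 to 1.04 at day 16. Psmb8 over Psmb5 in that line was 0.645 to 0.72 at day 0 and 1.37 to 1.74 at day 16. In line 19, Psmb9 over Psmb6 was 0.0519 to 0.0556 at day 0, 0.126 to 0.286 at day 6 and 0.0486 to 0.0902 at day 16, and in line 18 it was 0.0277 at day 0, 0.0163 to 0.0219 at day 6 and 0.0886 to 0.151 at day 16. The constitutive subunits themselves fell in line 15 at day 16, Psmb5 by 0.57 ± 0.11, Psmb6 by 0.42 ± 0.10 and Psmb7 by 0.31 ± 0.09 (edgeR adjusted p = 6.69e-05, 0.00125 and 0.00495), so that a ratio there also moved through its lower part.

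**Figure D2:**
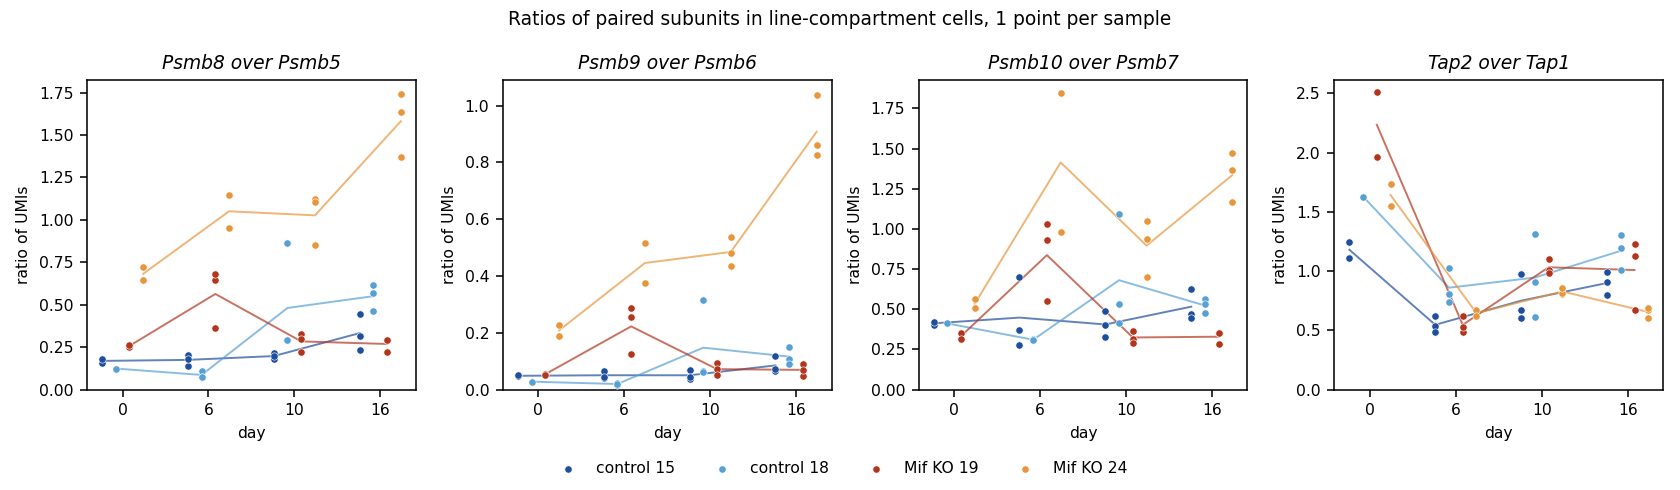
Ratio of UMIs of paired genes in the line compartment against day, 1 point per sample and coloured by line: Psmb8 over Psmb5, Psmb9 over Psmb6, Psmb10 over Psmb7 and Tap2 over Tap1. Line 24 ends highest for the 3 proteasome pairs, line 19 peaks at day 6, and Tap2 over Tap1 is highest at day 0 in each line.

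Nlrc5 had the fewest UMIs of the set. In line 19 it was at 4.92 and 4.94 CPM at day 0, 14.6, 13.6 and 8.56 at day 6, 3.60, 3.56 and 2.57 at day 10 and 4.38, 4.28 and 3.31 at day 16. Day 6 lay above day 0, and days 10 and 16 below it. Nlrc5 rose by 1.49 ± 0.39 at day 6 (edgeR adjusted p = 0.00267), with -0.43 ± 0.42 and -0.18 ± 0.42 later. In line 24 it was at 13.6 and 10.7 CPM at day 0, 27.2 and 31.9 at day 6, 21.7, 19.97 and 15.1 at day 10 and 35.5, 29.5 and 25.1 at day 16, and it rose by 1.4 ± 0.36 at day 6 and 1.41 ± 0.33 at day 16 (edgeR adjusted p = 0.00277 and 0.000758). Lines 15 and 18 had no call for Nlrc5 at any day.

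Counted by day against all 14183 genes tested, 7 of the 10 genes rose in line 19 at day 6 and 0 fell, where 22.6% of all genes rose and 20.5% fell (edgeR, adjusted p under 0.05). Leaving letter A of day 0 out of lines 15, 19 and 24 at once lost some of these 7 calls, and leaving out letter B lost all but that of Psmb10. Each leaves line 19 with 1 day 0 sample, of 215 cells without letter B. In line 24, 8 rose and 0 fell at day 16 (20.7% and 20.8% of all genes), 3 rose and 1 fell at day 6 (17.9% and 16.6%) and 2 rose at day 10 (19.5%). In line 18, 5 rose and 0 fell at day 10 (7.42% and 7.06%) and likewise at day 16 (7.93% and 7.84%), and 0 were called at day 6 (2.79% higher and 1.35% lower), where 1 member had an unadjusted p under 0.05 (17.7% of all genes) and DESeq2 called 1. In line 15, 0 rose and 1 fell at day 6 (17.8% and 14.6%), 2 rose and 1 fell at day 10 (23.6% and 20.3%) and 3 rose at day 16 (23.8%). In line 19, 2 rose and 1 fell at day 10 (21.1% and 18.1%) and likewise at day 16 (20.1% and 17.4%). The members' median change was 1.02 in line 19 at day 6, 1.0 in line 24 at day 16 and 1.38 and 1.27 in line 18 at days 10 and 16, where the medians of all genes were 0.04, -0.00, 0.15 and 0.17. Outside those 4, the members' medians lay between -0.28 and 0.50.

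**Figure D3:**
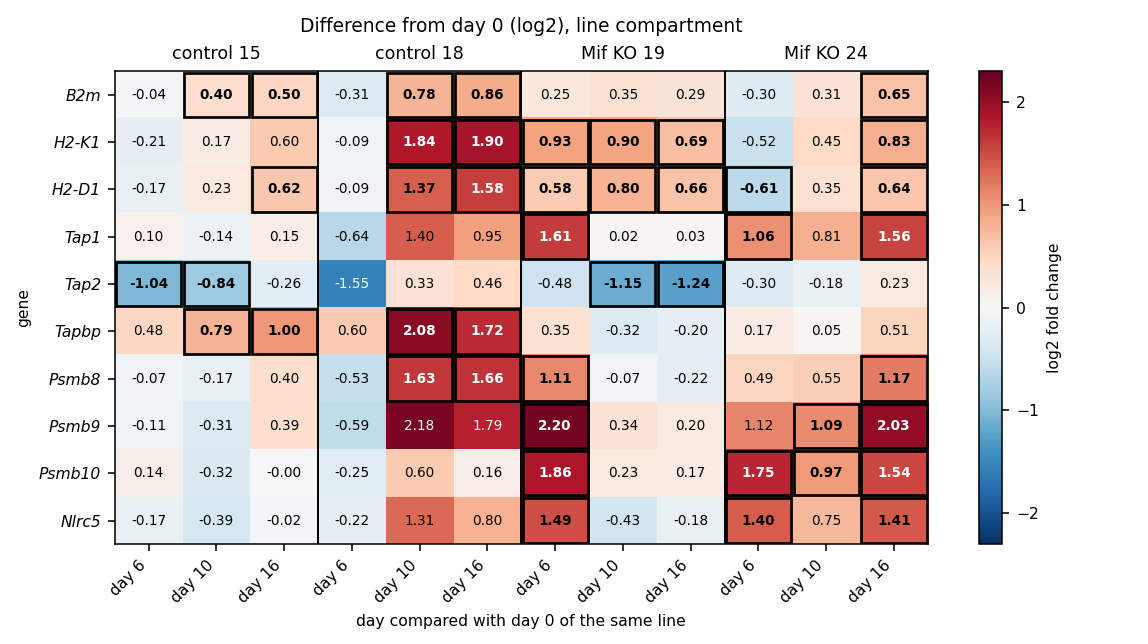
Log2 fold change from day 0 of each gene (rows) at days 6, 10 and 16 of each line (columns) in the line compartment, with a mark where edgeR's adjusted p is under 0.05. The marked cells of line 19 lie mostly at day 6 and those of line 24 at day 16, while Tap2 is below 0 at day 6 in all 4 lines.

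With the 3 later days pooled, as the comparison of day 0 with days 6 to 16 was set up, few of these changes passed the test. In line 24, Psmb10 rose (1.41 ± 0.49, edgeR adjusted p = 0.021), 1 of 10, where 20% of all genes rose and 19.6% fell. In lines 15, 18 and 19, 0 of the 10 were called, where 21.2%, 2.31% and 19.6% of all genes rose and 18.3%, 2.06% and 17.5% fell. At an unadjusted p under 0.05 these 3 lines had 1, 2 and 1 members in edgeR, Tapbp in line 15, Tapbp and H2-K1 in line 18 and Tap2 in line 19, where 47.4%, 20.4% and 45.6% of all genes were, and DESeq2 called 1, 1 and 0. The largest fitted changes were in line 18, 1.59 ± 0.59 for Tapbp, 1.5 ± 1.61 for Psmb9 and 1.46 ± 0.68 for H2-K1. In counts simulated like the pooled fit of line 18, 48% of 2-fold and 88% of 4-fold changes were recovered, and in that of line 24, 81% and 98%. The changed genes were drawn at random from all well-counted genes. These shares therefore do not hold for members with errors as wide as the 1.61 of Psmb9.

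The change from day 0 was set against itself between KO and control lines. Pooled over days, Tapbp had a lower change in the KO lines (difference -1.06 ± 0.41, edgeR adjusted p = 0.0452), and 0 members a higher one, where 13% of all genes were called higher and 16.3% lower. This call was lost with RLE scaling, no count filter, single-line libraries, a stricter cell filter or gate, thinned cells and without any 1 day 0 sample of lines 15, 19 and 24. The 1 day 0 sample of line 18, with 53 Tapbp UMIs in the main fit, was left out of none of them. By day, Tapbp was at -1.57 ± 0.28 at day 10 and -1.21 ± 0.28 at day 16 (adjusted p = 3.3e-05 and 0.000804, edgeR), the 1 member called at each of these days, where 15.2% of all genes were called higher and 19.1% lower at day 10 and 16% and 19.7% at day 16. At day 6, 4 members had a higher change in the KO lines, where 11.3% of all genes did: Psmb10 by 1.86 ± 0.39, Tap1 by 1.6 ± 0.56, Psmb8 by 1.10 ± 0.41 and Tap2 by 0.91 ± 0.35 (edgeR adjusted p = 0.000469, 0.031, 0.0461 and 0.0495). Nlrc5 was at 1.64 ± 0.66 and Psmb9 at 2.01 ± 0.94 without a call (edgeR adjusted p = 0.0643 and 0.114). The members without a call lay between -0.49 and 0.46 at day 10 and between -0.60 and 0.78 at day 16. For Tap2 the difference at day 6 came from fitted changes of -0.48 and -0.30 in lines 19 and 24 against -1.04 and -1.55 in lines 15 and 18. With single-line libraries alone 1 member was called at day 6, as without letter A of day 0 in lines 15, 19 and 24 or without letter B. The heavy chains and B2m were not called at any day, with differences of -0.49 to 0.36. Between the 2 KO lines, and between the 2 control lines, the courses differed as described, so a pooled contrast stands for neither of its lines alone.

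For some of the members, the change from day 6 to day 16 went in opposite directions in different lines, a contrast chosen after the values were seen. It was higher at day 16 for 9 of 10 genes in line 18, all but Psmb10 (15.2% of all genes), for 4 in line 15 (9.38%), the 3 chains and Tap2, and for the 3 chains in line 24 (0.677%). In line 19, all but the 3 chains fell, 7 genes, and 0 rose (9.05% and 10.1% of all genes). The means of B2m and H2-D1 in line 19 were higher at day 16, without a call. B2m was at 1733 and 1836 CPM at days 6 and 16, and H2-D1 at 947 and 1033. Psmb9 rose by 2.38 ± 0.47 in line 18 and fell by 2.0 ± 0.40 in line 19 (edgeR adjusted p = 0.000242 and 0.00056), and Psmb8 rose by 2.18 ± 0.30 and fell by 1.33 ± 0.28 (1.82e-06 and 0.0011). H2-K1 rose by 1.99 ± 0.24 in line 18, 1.35 ± 0.27 in line 24 and 0.81 ± 0.23 in line 15 (edgeR adjusted p = 1.55e-07, 0.0121 and 0.0113), and in line 19 it was at -0.23 ± 0.23 (0.521). An F test in edgeR asked whether this change differs among the 4 lines. All 10 genes were past the threshold, with edgeR adjusted p from 4.58e-06 for Psmb8 to 0.00246 for Psmb10, where 10.7% of all genes were. The lines had been seen to differ on these same values, so the test lends no separate support. Over all lines, day 16 was above day 6 for B2m (0.66 ± 0.11), H2-K1 (0.91 ± 0.20) and H2-D1 (0.92 ± 0.14; edgeR adjusted p = 1.15e-05, 0.000478 and 7.11e-06), 3 higher and 0 lower where 23.4% and 20.3% of 12828 genes were. The other 7 members were between -0.47 ± 0.24 for Psmb10 and 0.54 ± 0.23 for Tap2. Without line 19, 7 members were higher, and without line 18, 3 were higher and 2 lower.

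Genes that act beside the set were read from lists of proteasome caps, constitutive proteasome subunits, loading factors, further class I heavy chains, class I regulators and interferon signalling, and interferon genes, 42 tested genes in all. In line 19, 19, 9 and 8 of them rose at days 6, 10 and 16 (22.6%, 21.1% and 20.1% of all genes). There 5, 6 and 7 fell (20.5%, 18.1% and 17.4%). The counts that rose at days 10 and 16 of line 19 were near the shares of all genes. In line 24, 15, 12 and 24 rose (17.9%, 19.5% and 20.7%) and 1, 2 and 2 fell (16.6%, 18% and 20.8%). The 24 at day 16 include 1 interferon gene, of a list meant for T and NK cells. In line 18, 3, 17 and 12 rose (2.79%, 7.42% and 7.93%) and 0, 1 and 2 fell (1.35%, 7.06% and 7.84%). In line 15, 14, 18 and 22 rose (17.8%, 23.6% and 23.8%) and 1, 5 and 6 fell (14.6%, 20.3% and 21%). Irf1, an interferon-induced transcription factor, rose in line 19 from 13.3 to 18.9 CPM at day 0 to 128 to 189 at day 6 (3.65 ± 0.41, edgeR adjusted p = 9.23e-09), and in line 15 by 3.30 ± 0.38 at day 16 (1.98e-08), where the immunoproteasome genes had no call and 3 of the 10 members rose. Socs1, a feedback inhibitor of cytokine signalling, rose by 2.78 ± 0.28 in line 19 at day 6 and by 2.91 ± 0.26 in line 24 at day 16 (edgeR adjusted p = 1.35e-09 and 1.75e-10).

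Psme1 and Psme2, the subunits of the interferon-induced proteasome cap, rose by 0.78 ± 0.19 and 0.80 ± 0.21 in line 19 at day 6 and by 0.58 ± 0.19 and 0.72 ± 0.21 in line 24 at day 16 (edgeR adjusted p = 0.00157, 0.00272, 0.0139 and 0.00555). Of the further class I heavy chains, H2-Q6 rose most, by 3.40 ± 0.68 in line 19 at day 6 and 3.0 ± 0.36 in line 24 at day 16 (edgeR adjusted p = 0.000139 and 4.33e-08). These chains share sequence with each other, which makes their single counts uncertain. The loading chaperones Pdia3, Calr and Canx fell in line 19 at day 6, by 0.58 ± 0.07, 0.54 ± 0.09 and 0.24 ± 0.09 (edgeR adjusted p = 3.72e-08, 9.63e-06 and 0.0356), while Erap1, the peptide-trimming protease, rose by 0.69 ± 0.26 (0.0306). The fall was not particular to day 6: of the 7 loading and trimming genes, 3 were also called lower in line 19 at day 10 and 3 at day 16. Of all genes, 18.1% and 17.4% were lower at those days.

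The T cells of the same tumours were read for Ifng, the gene of interferon-gamma. In T cells of line 19 at day 6 it was at 468, 198 and 2500 CPM in letters A, B and C, and at days 10 and 16 between 144 and 264. The order within day 6 was not that of Psmb9, which was lowest in letter C. In line 24 Ifng was at 81.2 to 96.4 CPM at day 6 and 236 to 329 at day 16. In line 18 it was highest, at 399.7 CPM, in day 10 letter A, the tumour with the highest Psmb9, against 128 and 21.5 in letters B and C. The days did not follow that order: Psmb9 in line 18 was at 3.59 to 4.61 CPM at day 6 and 18.6 to 30.9 at day 16. Ifng there was at 117 and 373 CPM in letters B and C of day 6, and at 77.9 to 104 at day 16. In line 15 it was at 370.5, 2051 and 28.4 CPM at day 6, the highest value in letter B. Psmb10 stood there at 90.3 CPM against 44.2 and 38.2, while H2-K1 was the lowest of that day, at 451 CPM. These rest on 20 to 590 T cells and 2 to 513 Ifng UMIs a tumour. T cells made up 5.74 to 25.3% of gated and ungated singlets in tumours of line 24. They were at 2.55 to 12% in line 19 and 0.415 to 4.09% in the control lines. At day 0, T cells and macrophages were at 0 in lines 15, 18 and 19. Line 24 alone had them at day 0, T cells at 0.202 and 0.654% and macrophages at 0.892 and 1.06%, and their source was not tested. The part of T cells or of interferon in the class I changes was not tested.

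RNA of host cells in the line compartment was measured through their markers. The gate itself keeps these levels low, since line cells were chosen for few UMIs of the same markers. The summed level of 11 macrophage markers (the list without Cd68) in line cells of later tumours was 10.7 to 64.8 CPM, against 7129 to 18128 in the gated macrophages, or 0.0757 to 0.572%. If every such UMI came with the class I UMIs of a macrophage, the median share of a member's line level would be 0.372% (H2-D1) to 1.43% (Psmb9), and the highest for any tumour 15.2%, for Psmb9. Letter C, from a mixed library, stood apart in lines 15 and 19, at 38.1 to 39.3 and 37.2 to 41.9 CPM against 10.7 to 13.6 and 11.1 to 13.2 in letters A and B. The 10 T cell markers were at 0.851 to 28 CPM in line cells, up to 1.62% of their level in T cells, and the same reckoning gave at most 4.3% (Psmb9). In line 24 these markers were at 3.51 and 3.87 CPM at day 0 and at 11.2 to 28 later. In later tumours of lines 15, 18 and 19 they reached at most 7.54 CPM. Of the full list of 12 macrophage markers at most 1 was at 0 in a later sample and up to 4 at day 0. Ptprc was at 0 by the gate. Of the other host lists, the median level in line cells went from 2.69 CPM at day 0 to 14.5 later for 5 osteoclast markers, from 4.71 to 19.5 for 5 fibroblast markers and from 33.2 to 13.2 for 7 endothelial markers, and their part in the class I levels was not tested.

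Per cell, both the share of cells with a UMI and the mean UMIs were read. With each line cell thinned to 1000 UMIs, which left 57337 cells and dropped 1735 shallower ones, the share with an H2-K1 UMI in line 18 was 20.4% at day 0, 17.6 to 24% at day 6 and 55.9 to 61.2% at day 16. In line 24 it was 79.5 to 80.8% at day 0, 59.4 to 71.5% at day 6 and 87.7 to 92.6% at day 16. Its means there were 1.99 to 2.02 UMIs a cell at day 0 and 2.8 to 3.22 at day 16. B2m was seen in 93.6 to 94.2% of line 24 cells at day 0 and 94.2 to 97.2% at day 16, where its mean was 3.13 to 3.14 and 4.03 to 4.4 UMIs. Psmb9 was seen in 1.58 to 1.89% of line 19 cells at day 0, 2.96 to 7.51% at day 6 and 1.35 to 2.47% at day 16. Any of Psmb8, Psmb9, Psmb10, Tap1 and Nlrc5 was seen in 12.3% of line 19 cells in both day 0 samples, 18.8 to 36.2% at day 6 and 10.4 to 14.1% at day 16. In line 19 at day 6, cells with such a UMI had 0.931 to 1.53 H2-K1 UMIs on average and the others 0.533 to 0.926. At day 0 these were 0.5 to 0.53 and 0.441 to 0.524, at day 10 they were 0.986 to 1.29 and 0.727 to 0.959, and at day 16 0.919 to 1.4 and 0.623 to 0.816. Cells of 1 sample are not replicates, and these values have no test.

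Over the tumours of days 6 to 16, all 10 genes were called higher in macrophages and in T cells than in the line compartment, though not in each tumour. For macrophages, in 35 tumours, 10 of 10 were higher than in the line compartment and 0 lower, where 37.4% and 45.5% of 12861 genes were, and for T cells, in 33 tumours with at least 20 of them, 10 were higher and 0 lower, where 31.3% and 40.2% of 12805 genes were. Psmb9 differed most: its lowest, median and highest levels were 3.59, 18.4 and 194 CPM in line cells, 98.3, 169 and 383 in macrophages and 159.7, 219.6 and 341 in T cells, a difference of 3.05 ± 0.22 and 2.84 ± 0.23 on the log2 scale (edgeR adjusted p = 1.4e-16 and 2.04e-15). Over tumours the ranges overlap, but for Psmb9 both host classes were above the line cells in 35 of 35 and 33 of 33. B2m differed least, by 0.75 ± 0.07 in macrophages and 0.59 ± 0.07 in T cells (edgeR adjusted p = 2.66e-12 and 2.53e-10), and was higher in 32 of 35 and 30 of 33 tumours. H2-K1 and H2-D1 were each higher in macrophages in 29 of 35 tumours, and H2-D1 was higher in T cells in 29 of 33. In line 24 the order of macrophages and line cells was turned at days 10 and 16: at day 16, H2-K1 was at 3010 ± 152 CPM (SD, n = 3) in line cells and 2502 ± 360.4 in macrophages, and H2-D1 at 2892 ± 52.6 and 2326 ± 212. At day 10 the means of H2-K1 there were 2358 and 2063 CPM and those of H2-D1 2413 and 1883. The other 8 differed by 0.93 (H2-D1) to 2.29 (Psmb8) in macrophages and by 1.08 (H2-D1) to 2.41 (Psmb8) in T cells. H2-K1 was at a median of 816 CPM in line cells, 1596 in macrophages and 3262 in T cells. In the 7 tumours with 20 or more dendritic cells, the professional presenting cells, Psmb8 had a median of 960.3 CPM and a range of 716 to 1302.

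**Figure D4:**
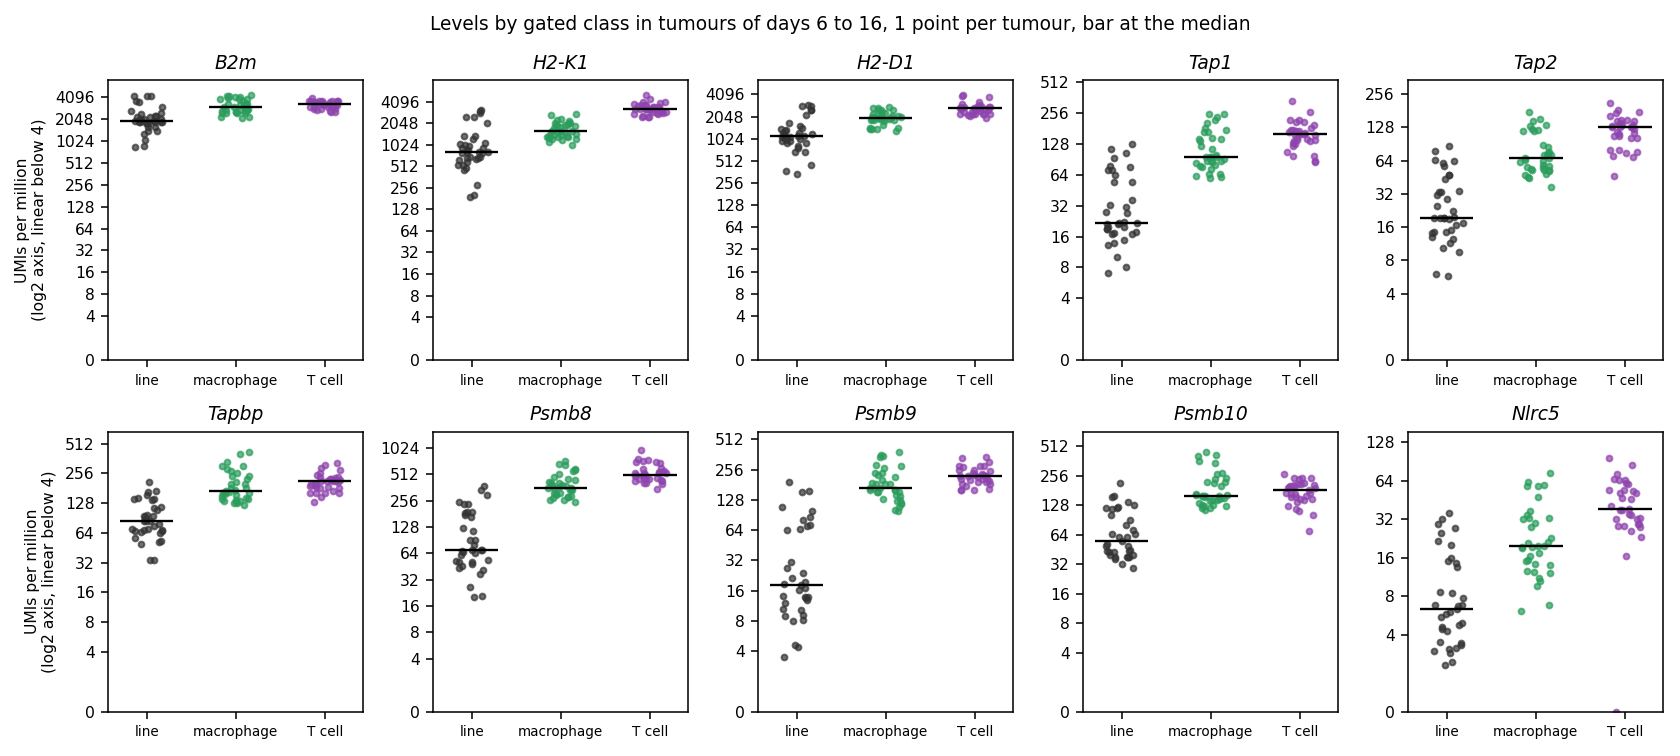
Level of each gene (CPM, log2 axis that is linear below 4) in the line compartment, macrophages and monocytes, and T cells of tumours of days 6 to 16, 1 point per tumour with at least 20 cells of the class and a bar at the median. The medians of both host classes lie above that of the line compartment for every gene, by the widest margin for Psmb9, and those of B2m lie closest.

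In macrophages, Nlrc5, Psmb10, Tap1 and Psmb9 were lower at day 16 than at day 6. Nlrc5 was at 10.4, 47.7 and 73.9 CPM (lowest, median and highest of 11 tumours) at day 6 and at 6.87, 15.9 and 37.3 (12 tumours) at day 16, a fall of 1.07 ± 0.24 (edgeR adjusted p = 0.00283). Psmb10 fell by 0.69 ± 0.20, Tap1 by 0.67 ± 0.21 and Psmb9 by 0.53 ± 0.18 (edgeR adjusted p = 0.0154, 0.0287 and 0.0481), 4 of 10, with 0 rising, where 8.15% and 6.41% of 9156 genes fell and rose. The days overlapped for each of the 4. The fall was not seen in line 18, whose means at days 6 and 16 were 12.3 and 13.1 CPM for Nlrc5, 141 and 145 for Psmb10, 68.3 and 80.6 for Tap1 and 126 and 147 for Psmb9 (n = 3 each). The means of lines 15, 19 and 24 were lower at day 16 for all 4 genes. Psmb8 was at -0.44 ± 0.16, Tap2 at -0.44 ± 0.22, Tapbp at -0.43 ± 0.17, B2m at -0.15 ± 0.10, H2-K1 at -0.04 ± 0.13 and H2-D1 at 0.05 ± 0.12, without a call. Without line 19, or in single-line libraries alone, 0 members were called by edgeR, without line 15, 1 was, and without line 18, 8 were. DESeq2 called 5, and at an unadjusted p under 0.05 edgeR had 6, where 28.6% of all genes were.

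Over the 42 samples of the line compartment, and after subtracting each line's mean, pairs of the set differed in how closely they moved together. Pearson's r of log2 levels was 0.98 for H2-K1 with H2-D1, 0.96 for B2m with H2-D1, 0.97 for Tap1 with Psmb9, 0.96 for Psmb8 with Psmb9 and 0.91 for Nlrc5 with Psmb10 and with Tap1. Psmb8 and Psmb9 also followed the chains, at 0.83 for Psmb8 with H2-K1, 0.76 with B2m and 0.75 with H2-D1, and 0.75 for Psmb9 with H2-K1. Tap1 with Tap2 was at 0.65. It was 0.20 for Psmb10 with B2m and with H2-D1, and 0.37 for Psmb10 with Tap2. The samples share libraries, days and hosts, and r is given as a description. Of 8028 genes with a mean of at least 10 CPM, the members included, those outside the set most like the mean of the members by the same measure were H2-Q4 (0.92), H2-T22 (0.90), Psme1 (0.88), Sp110 (0.87), Psme2 (0.87), Gbp6 (0.86), Ifi211 (0.86), Ifi203 (0.86), Parp14 (0.85) and Stat2 (0.85).

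**Figure D5:**
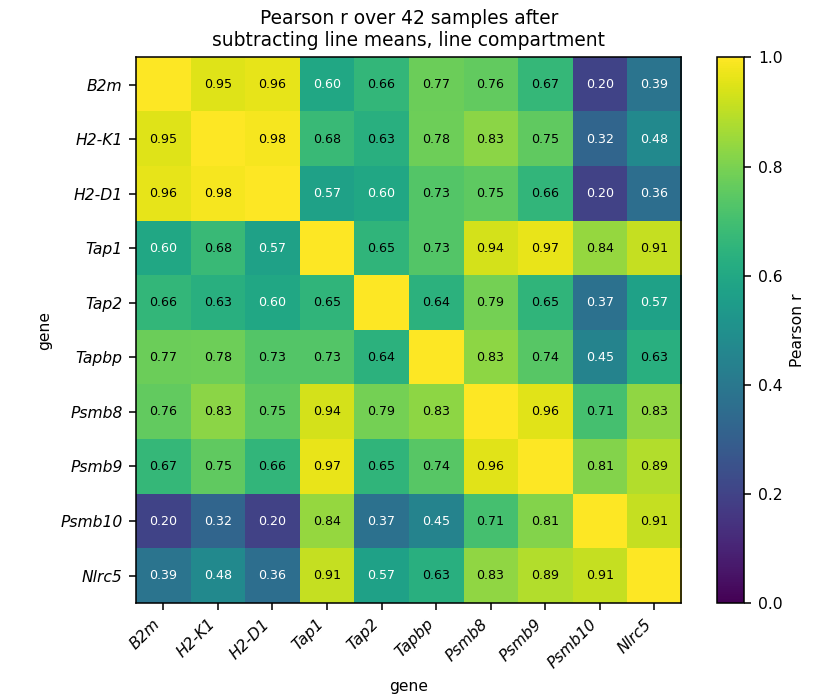
Pearson's r between the levels (log2 of CPM + 1) of each pair of the 10 genes over 42 samples of the line compartment, after subtracting line means, on a colour scale. The highest values are within B2m, H2-K1 and H2-D1 and among Tap1, Psmb8, Psmb9, Psmb10 and Nlrc5, and Psmb8 is also close to the chains, at 0.83 with H2-K1. The lowest values, in the darkest cells, lie between Psmb10 and the chains of the class I molecule.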

How the data were processed

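UMI counts per gene and cell barcode, and per hashtag, are used as the authors deposited them, and the submitters' processing notes name Cell Ranger 6.0.0 and mm10. Barcodes under 300 genes or above 15% mitochondrial UMIs were dropped. Hashtags were called with HTODemux in Seurat 5.3.0, doublets (17.9 to 30.9% of a library) were dropped, and 45 of the 47 hashtags of the deposited sheet were used. Cells were gated by marker genes: line cells have no Ptprc UMI, a share of macrophage-marker UMIs under a fixed limit and fewer than 2 markers of each other host type (Klra4 was left out of the NK list because day 0 line cells had it), and 3151 and 2237 cells lay just below and just above that limit. UMIs were summed per sample and class, with at least 20 cells, and tested with edgeR 4.0.16 (TMM scaling, quasi-likelihood, Benjamini-Hochberg over all genes tested, threshold 0.05). Fits of day 0 against later days hold all 42 samples of the 4 lines in 1 model, and the class comparisons are blocked by tumour. DESeq2 1.42.0 was an alternative. The standard error given with a log2 fold change is approximate, its size divided by the square root of the test's F. The fits were tested on simulated data. The 10 genes, the lists and the markers were chosen with earlier results of these data known. By rule the 10 members are named in each comparison (some by count or range alone), and list genes by size of change among those called, at most 3 a list and direction. Tests by day were an alternative to pooled later days, and their own alternatives and the contrast of day 16 with day 6 within a line were chosen after seeing the data. The 3 WT samples, which no label puts in a group, entered no test. The values of 1 list gene are not reported here.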

Additional observations from a re-analysis of the deposited data

Results flagged for a closer look

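In groups of 8 or 9 later tumours of a line, pooled over days, 7 of 40 sets of values had 1 tumour far from the rest. About 1 in 20 is the rate by chance for independent sets from 1 distribution, and these sets pool days that differ and genes that move together, so that rate is no measure for them. The tumour of line 18, day 10 letter A, accounts for 5 of them, with Tap1 at 71.3, Tapbp at 167, Psmb9 at 64.5, Psmb10 at 129.7 and Nlrc5 at 15.8 CPM. The others were H2-K1 at 1221 CPM in line 15, day 16 letter A, and Psmb10 at 90.3 CPM in line 15, day 6 letter B. Ifng in the T cells was the highest of its line and day in each of these 3 tumours, at 399.7, 221 and 2051 CPM. In the last of them, line 15, day 6 letter B, H2-K1 was the lowest of its day, at 451 CPM. In line 19 at day 6, Ifng was highest in letter C, at 2500 CPM, where Psmb9 was the lowest of its day, at 27.1. The part of Ifng was not tested. Without letter A of the later days, 3 members were called at day 10 in line 18 in place of 5.

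The change from day 0 differed between KO and control lines for Tapbp, by -1.06 pooled over days on the log2 scale. This call was lost with 6 other settings of the scaling, filters, gate, libraries or depth. By day the difference was -1.57 at day 10 and -1.21 at day 16. Tapbp was the 1 member called lower in each of these, where 16.3%, 19.1% and 19.7% of all genes were. The control lines include line 18, with 1 day 0 sample of 53 Tapbp UMIs. At day 6 the change differed for Psmb10 by 1.86, Tap1 by 1.6, Psmb8 by 1.10 and Tap2 by 0.91. These 4 were higher in the KO lines, where 11.3% of all genes were. The change from day 6 to day 16 differed among the 4 lines for all 10 genes, where 10.7% of all genes did, in a contrast chosen after opposite directions had been seen, with F values of 12.9 for B2m, 16.4 for H2-K1, 14.9 for H2-D1, 16 for Tap1, 22.7 for Tap2, 12.5 for Tapbp, 24.4 for Psmb8, 18.3 for Psmb9, 9.89 for Psmb10 and 12.9 for Nlrc5.

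The 3 WT tumours entered no comparison, and 24 of their 30 values lay above all 6 control tumours of the same day. B2m was at 2854, 3071 and 3406 CPM at days 6, 10 and 16, H2-K1 at 1534, 1705 and 2027, H2-D1 at 1645, 2003 and 2362, and Psmb9 at 92.3, 65.8 and 85.0. At days 6 and 16 the same held for Tap1 (77.1 and 59.5 CPM), Tap2 (49.2 and 52.1), Tapbp (150.2 and 118), Psmb8 (223 and 194), Psmb10 (136 and 84.2) and Nlrc5 (21.5 and 16.8). All 3 were in 1 mixed library, with letter C of line 24 at each day and of line 18 at days 6 and 10, and none of the control tumours of day 16 was in it. The difference was not tested, since no label puts these tumours in a group.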

How the results depend on the processing

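Numbers below count the members called by edgeR unless DESeq2 is named. In fits by day, a letter of day 0 was left out of lines 15, 19 and 24 at once, and a letter of the later days out of all 4 lines. Of the recomputed counts 565 stayed within 1.5 times the main count and 121 did not, and of the members' log2 fold changes 2949 kept direction and side of the threshold, 157 passed it, 146 lost it, 175 without a call moved and 3 reversed: at day 6 alone H2-D1 in line 24 (-0.61), and Psmb8 (1.10) and Tap2 (0.91) in the difference between KO and control lines. Day 0 against pooled later days (0 in lines 15, 18 and 19, 1 in line 24) is most open to the choice of days: day 6, 10 or 16 alone gave 0, 2 and 3 higher and 1, 1 and 0 lower in line 15, 0, 5 and 5 higher in line 18, 7, 2 and 2 higher and 0, 1 and 1 lower in line 19, and 3, 2 and 8 higher and 1, 0 and 0 lower in line 24. DESeq2 gave 1 higher in lines 15 and 18 and 2 in line 24, and calling hashtags by a ratio of counts gave 1, 1 and 2 higher there and 1 lower in line 19. Leaving out single samples or libraries gave 0 to 1 higher in line 24, 0 to 1 lower in line 19, and 0 to 1 lower for the pooled difference between KO and control lines (main 1), which was 0 with RLE scaling, no count filter, single-line libraries, a stricter cell filter, a stricter gate, thinned cells and day 6 alone, the last with 4 higher. By day, leaving out 1 letter gave these ranges: line 15, 0 to 1 lower at day 6, 0 to 2 higher and 0 to 1 lower at day 10 and 1 to 4 higher at day 16; line 18, 0 to 1 lower at day 6, 3 to 5 higher at day 10 and 5 at day 16; line 19, 1 to 9 higher and 0 to 1 lower at day 6, 1 to 3 and 0 to 1 at day 10 and 0 to 3 and 0 to 1 at day 16; line 24, 1 to 4 higher and 0 to 1 lower at day 6, 0 to 6 higher at day 10 and 5 to 9 at day 16. Some of the 7 calls of line 19 at day 6 were lost without letter A of day 0, and all but that of Psmb10 without letter B. Each leaves line 19 with 1 day 0 sample, of 215 cells without letter B, while the fitted changes stayed near their values (2.13 in place of 2.20 for Psmb9). With no count filter, line 15 had 1 higher at day 6, 2 lower at day 10 and 6 higher at day 16, line 18 had 1 lower at day 6 and 8 higher at day 10, line 19 had 1 lower at day 6, and line 24 had 5 higher and 2 lower at day 6 and 8 higher at day 10. Single-line libraries gave 1 higher and 0 lower in line 24 at day 6 and 6 higher at day 10, where DESeq2 and the stricter gate gave 1. The ratio hashtag call gave 1 higher and 0 lower in line 15 at day 6, 0 lower at day 10, and 1 higher in line 19 at day 16. Thinned cells gave 0 lower in line 15 at days 6 and 10 and 5 higher at day 16, and 3 higher in line 18 at days 10 and 16. DESeq2 gave 1 lower in line 18 at day 6. From day 6 to day 16, leaving out a letter gave 1 to 5 higher in line 15 and 1 to 3 in line 24, no count filter 7 in each, and the ratio hashtag call 1 in line 15. The difference between KO and control lines at day 6 had 1 to 5 higher without single letters, 7 with no count filter, 1 with single-line libraries or the ratio hashtag call and 2 with thinned cells. At day 10 it had 1 higher and 2 lower with no count filter, and at day 16 1 higher and 5 lower with no count filter, 2 lower with single-line libraries or thinned cells and 1 to 2 without single letters. Over all lines, day 16 against day 6 had 7 higher without line 19 and 2 lower without line 18, and in macrophages 0 lower with single-line libraries or without line 19, 1 without line 15 and 8 without line 18. Where a fit is not said to hold fewer samples, the cause was not tested. Line 18 has 1 day 0 sample of 230 cells, and Nlrc5 and Psmb9 rest on few UMIs there, which limits what could be called.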
